A study of Arabidopsis thaliana with 40 samples.

Results

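The 8 genes described here are cold-acclimation genes of *Arabidopsis thaliana*: KIN1 (AT5G15960), KIN2 (AT5G15970), COR15A (AT2G42540), COR47 (AT1G20440), ERD10 (AT1G20450), ERD14 (AT1G76180), RD29A (AT5G52310) and RD29B (AT5G52300). They were taken by locus from a CEL-Seq expression table of 32678 *Arabidopsis* loci, and were selected on the measured level of KIN2, the highest of any locus outside ribosomal RNA. That level is therefore a description and was not tested. All samples were single cells from roots of Col-0 plants carrying WOX5:GFP, a reporter of the quiescent center (QC), harvested at 5 days after stratification and sorted for GFP after digestion of the cell walls. By the study's methods, seeds were stratified in the cold and plants then grew at a warmer temperature. There was 1 group with 40 samples, none labelled as cold-treated or as a control, and 39 of the samples had a profile.

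Plants of temperate origin become more tolerant of freezing after days at low, non-freezing temperature, a process called cold acclimation. CBF transcription factors bind the C-repeat, also named the dehydration-responsive element (CRT/DRE), in the promoters of many cold-regulated (COR) genes, while factors of the ABF family bind the abscisic acid response element (ABRE). The same genes respond to drought, salt and abscisic acid. Their products are mostly small and hydrophilic proteins: KIN1 and KIN2 are near-identical short proteins, COR15A is a chloroplast stroma protein that protects membranes, COR47, ERD10 and ERD14 are acidic dehydrins, and RD29A and RD29B are large hydrophilic proteins of unknown biochemical activity.

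The total count per profile over loci ranged from 57655 in QC cell 4 to 7431708 in QC cell 22. Ordered by total, no value of the table was lower in a deeper profile than in a shallower one, so each profile held all counts of those before it. The profiles were treated as 1 biological sample with no replicate error, and no test was run. Levels are given in CPM (counts per 1000000 counts over loci) for the deepest profile, QC cell 22, with exact Poisson intervals at the 95% level that cover counting error only. The counts can also be divided into 39 portions that do not overlap, the shallowest profile and the 38 additions to it, which held between 12920 and 1228427 counts. Of 19 root cell type markers, 10 (52.6%) were above 0 in the deepest profile, near the 51.3% of all loci. Among the QC markers WOX5 had 10.6 CPM and AGL42 2.96 CPM, while PLT1 and PLT2 were listed at 0, and SCR, of the QC and endodermis, had 28.5 CPM. Of the endodermis MYB36 had 130 CPM and CASP1 was listed at 0. Of the stele WOL had 33.5 CPM and SHR 4.17 CPM, and of the phloem APL had 20.5 CPM and SUC2 4.04 CPM. The epidermal GL2 had 8.48 CPM and the xylem regulator VND7 1.21 CPM. WER of the epidermis, CO2 of the cortex, COBL9 of root hairs and the root cap markers SMB, BRN1 and BRN2 were listed at 0, as was the row of the sorted GFP reporter. The part of other cell types in the levels below was not tested.

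KIN1 and KIN2 lie next to each other on chromosome 5, on the same strand and 892 bases apart (RefSeq annotation of the TAIR10.1 assembly, 5209717 to 5210826 and 5211719 to 5212743). Their coding sequences, shown because reads must tell them apart, are each 201 bases long and differ at 10 positions, which are printed in capitals (RefSeq, TAIR10.1, plus strand).
KIN1: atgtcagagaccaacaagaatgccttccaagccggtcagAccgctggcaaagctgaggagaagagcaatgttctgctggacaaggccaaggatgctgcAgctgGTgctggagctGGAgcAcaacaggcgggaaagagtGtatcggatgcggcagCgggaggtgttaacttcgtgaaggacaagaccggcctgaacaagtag
KIN2: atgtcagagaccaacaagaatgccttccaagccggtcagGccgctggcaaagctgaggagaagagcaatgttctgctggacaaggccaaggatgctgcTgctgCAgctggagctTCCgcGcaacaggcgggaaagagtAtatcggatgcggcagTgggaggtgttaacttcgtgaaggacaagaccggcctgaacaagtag

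The coding sequences were identical at 191 of 201 positions, and the longest run shared by the spliced transcripts was 58 bases. Of the 701 windows of 50 bases in the KIN2 transcript, 10 occurred without a mismatch in that of KIN1. The annotated transcript ends differed more. The last 300 bases of the longest RefSeq transcripts aligned with 55.9% identity, gaps left out, and the longest shared run there was 14 bases. Whether the transcripts measured ended there was not tested. CEL-Seq reads come from the 3' end of the transcript. For the study's other single-cell RNA-seq, the methods state that a read with several genomic matches counted as a partial read, but whether this was applied to the CEL-Seq cells is not stated, so the division between KIN1 and KIN2 is uncertain.

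The CRT/DRE and ABRE were searched in the 500 bases before the start codon of each gene, on both strands, and are shown because they are the known elements of cold and abscisic acid response. The core CCGAC of the CRT/DRE was found for 7 of the 8 genes, against 23.4% of 27443 protein-coding genes. ERD14 was the exception. COR15A, ERD10 and RD29A had 2 or more matches, a feature of 4.42% of all genes. As the windows end at the start codon, they can lie within the annotated gene. The CRT/DRE matches printed for KIN1, KIN2, COR47, ERD10 and COR15A did so, while those printed for RD29A and RD29B lay before the annotated gene. Each site is printed on the strand of its gene with the match in capitals. In KIN1 and KIN2 the site stood 178 and 185 bases before the start codon in almost the same sequence.
KIN1 (chr5:5209804-5209828, TAIR10.1, plus strand): taaatagctaCCGACataaggcaaa
KIN2 (chr5:5211771-5211795, plus strand): taaaaagctaCCGACataaggcaaa
COR47 (chr1:7085918-7085942, minus strand): tattcatctaCCGACttcaagaaat
ERD10, 3 overlapping matches (chr1:7089365-7089393, minus strand): ttcatccaCCGACCGACCGACgtaaaaga
COR15A (chr2:17712218-17712242, minus strand): aatttcatggCCGACctgctttttt
RD29A (chr5:21240674-21240698, plus strand): agatatactaCCGACatgagttcca
RD29B (chr5:21236875-21236899, plus strand): taaacgtggaCCGACtaaaactaaa

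RD29A had the most CRT/DRE sites without overlap, at 352, 302, 245 and 208 bases before the start codon. The ABRE core ACGTG was found for 7 of the 8 genes, all but ERD10, against 34.9% of all genes. A match on both strands at once forms the palindrome CACGTG, and KIN2 had 3 such sites, KIN1 and COR15A 2 each. RD29B, a gene known for its response to abscisic acid, had 4 single sites and 1 CRT/DRE, so its balance of elements was the reverse of that of RD29A, with 1 and 4.
KIN1 (chr5:5209844-5209869, plus strand): aaatgtaatcCACGTGgttttagatt
KIN2 (chr5:5211811-5211836, plus strand): aaacgtaatcCACGTGgtttcagatt
RD29B (chr5:21237001-21237025, plus strand): gacgcatcgtACGTGtcagaatcct
The evening element AAAATATCT is a clock-related sequence found near cold-induced genes. Its last 8 letters, AAATATCT, were searched, and they matched in the windows of KIN1, KIN2, COR15A and ERD10, against 8.27% of all genes. Only in KIN2 and COR15A did the further A that completes the element precede the match. The share of all genes with the complete element was not computed. Of the ABRE matches printed, those of KIN1 and KIN2 also lay within the annotated gene, and that of RD29B lay before it. A match is a description of letters and does not show binding.

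**Figure D1:**
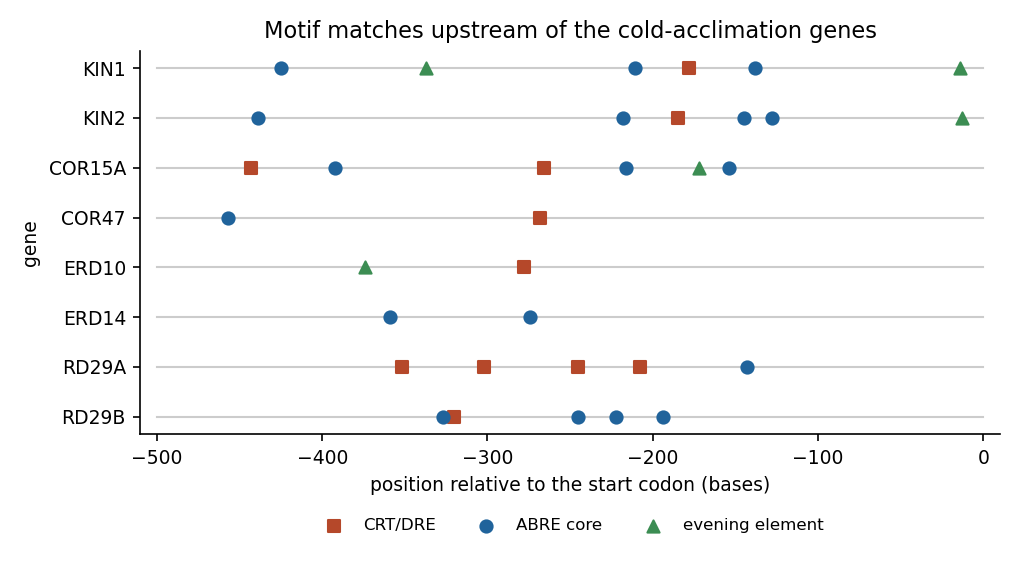
Positions of motif matches in the 500 bases before the start codon of the 8 genes (x axis, bases from the start codon, y axis, gene). Squares mark the CRT/DRE, circles the ABRE core and triangles the letters AAATATCT of the evening element, with overlapping matches drawn once. RD29A has 4 squares and 1 circle, RD29B 1 square and 4 circles, and ERD14 no square.

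In the deepest profile the genes together had 172410 counts, which was 2.32% of all counts over loci and 2.69% without ribosomal RNA loci. Their summed level was 23199 CPM (23090 to 23309). KIN1 and KIN2 held 54.3% of the summed count, the dehydrins COR47, ERD10 and ERD14 held 39.4%, and RD29A with RD29B held 6.25%. The sum, its interval and these shares take the counts of KIN1 and KIN2 as separate, which was not tested. Of the 8 genes, 3 were among the 10 highest loci and 6 among the 100 highest. Over all 16780 loci above 0 the median was 12.1 CPM.

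KIN2, which is also named COR6.6, had 51609 counts and a level of 6944 CPM (6885 to 7005). It ranked 5 among all loci, after 4 ribosomal RNA loci, and also ranked 5 after division by transcript length. KIN1 followed at rank 6, with 42045 counts and 5658 CPM (5604 to 5712). The next locus was no member: UBQ10 (AT4G05320), a polyubiquitin gene named after its value was seen, had 5133 CPM (5081 to 5185). KIN2 thus lay 573 times and KIN1 467 times above the median locus on the CPM scale.

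The 3 dehydrins came next. COR47 had 31332 counts, 4216 CPM (4169 to 4263) and rank 8. ERD14 had 19098 counts, 2570 CPM (2533 to 2607) and rank 23, and ERD10 had 17546 counts, 2361 CPM (2326 to 2396) and rank 27. The Poisson intervals of the 3 genes did not overlap. Dehydrins bind water, ions and membranes, and these 3 share a serine-rich stretch and lysine-rich repeats.

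RD29A had 9486 counts, 1276 CPM (1251 to 1302) and rank 66. Its neighbour RD29B, 1185 bases away on chromosome 5, had 1294 counts, 174 CPM (165 to 184) and rank 956. The coding sequences of this tandem pair were 77.3% identical where aligned, with a longest shared run of 41 bases between the transcripts, and no window of 50 bases of RD29A occurred in RD29B. RD29A exceeded RD29B by 7.33-fold in counts (6.92 to 7.78, exact binomial interval), and by 5.98-fold after division by transcript length.

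COR15A was listed at 0 in all 39 profiles. Its tandem copy COR15B (AT2G42530), 7 bases away on chromosome 2 and 83.8% identical in coding sequence, was listed at 0 as well. A listed 0 sets no limit in these data, as the dehydrin gene AT4G38410 showed. This gene, named after its values were seen, was listed at 0 in the 9 shallowest profiles, up to a total of 450108 counts, and had 169 counts at once in the next, at 543543 counts. At its level in the deepest profile, 293 CPM, 132 counts were expected in the profile before. In all, 48.7% of loci were listed at 0 in the deepest profile, so no upper limit was set for COR15A.

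The order of the genes changed in part after division by transcript length. CEL-Seq counts are not divided by transcript length, and the longest RefSeq transcripts ranged from 750 bases for KIN2 to 2663 bases for RD29A. Per kilobase of transcript, KIN2 had 9259 CPM, KIN1 6825, ERD14 2181, COR47 1817, ERD10 1463, RD29A 479 and RD29B 80.2. On this scale COR47 and ERD14 exchanged places, with a ratio of 1.64 in counts and 0.833 per length, while the other genes kept their order. As CEL-Seq reads come from the 3' end, counts need not grow with transcript length. The values per length, here and below, also depend on the annotated ends, so the exchange is no evidence that ERD14 was the more abundant.

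**Figure D2:**
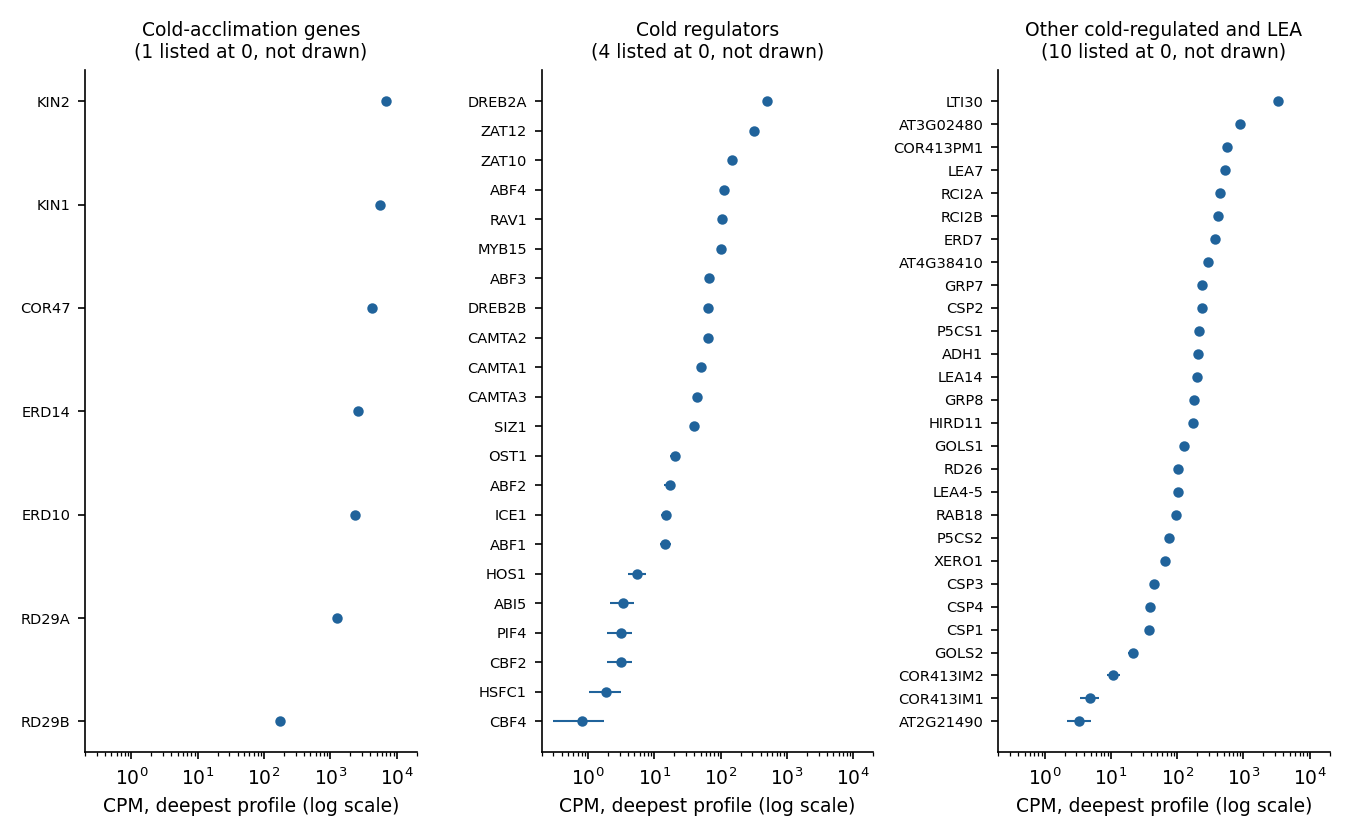
Levels in the deepest profile (x axis, CPM on a log scale) of the cold-acclimation genes, of cold regulators and of other cold-regulated and late embryogenesis abundant (LEA) genes. Points are recovered counts scaled to CPM and bars are exact Poisson intervals. KIN2 lies highest with 6944 CPM, and the highest regulator, DREB2A, lies at 507 CPM.

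At every depth 7 of the 8 genes were detected, being above 0 in all 39 profiles. As the profiles are nested, being above 0 in the shallowest profile fixes this for all deeper ones. Loci above 0 in all profiles made up 15.3% of the table. All 7 genes reached 100 CPM in the deepest profile, and of the 1768 loci that did so 1609 were above 0 in every profile. Detection at every depth was thus usual at these levels. In the shallowest profile, with 57655 counts, KIN2 had 475 counts, KIN1 397, COR47 258, ERD14 171, ERD10 153, RD29A 78 and RD29B 12. These counts stood in the same order as in the deepest profile. At this depth the intervals of ERD14 (2538 to 3445 CPM) and ERD10 (2250 to 3109 CPM) overlapped, so the order of these neighbours was not resolved there.

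Across the nested profiles the CPM of KIN2 had its highest value, 8239, in the shallowest profile, a median of 7201 and its lowest value, 6944, in the deepest. KIN1 ranged from 5658 to 6886 CPM with a median of 5831. These decreases went with a change in the loci listed above 0, from 4997 in the shallowest to 16780 in the deepest profile. Over the 4997 loci above 0 in every profile, KIN2 had 8239 CPM in the shallowest and 8381 CPM in the deepest profile, and KIN1 6886 and 6828 CPM. On the main scale COR47 ranged from 4207 to 4483 CPM, ERD14 from 2545 to 2966, ERD10 from 2351 to 2654, RD29A from 1190 to 1353 and RD29B from 144 to 208. As the profiles share counts, these ranges are narrower than those of separate cells could be.

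**Figure D3:**
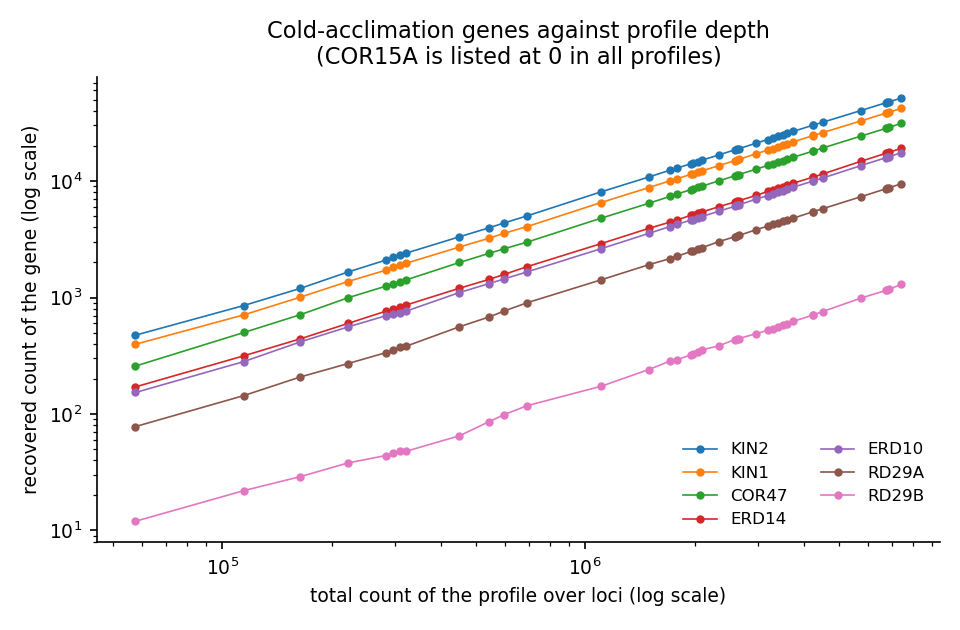
Recovered count of each gene (y axis, log scale) against the total count of the profile over loci (x axis, log scale) for 39 nested profiles, with 1 line per gene. The lines run nearly parallel from 475 to 51609 counts for KIN2 and from 12 to 1294 for RD29B, and ERD14 and ERD10 lie close together.

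The separate portions showed how the levels varied where no counts are shared. KIN2 ranged from 5889 CPM to 9056 CPM with a median of 7021. KIN1 ranged from 4819 to 8437 CPM with a median of 5723. Both had their lowest value in the portion of QC cell 16 and their highest in that of QC cell 25, which was the smallest portion with 12920 counts.

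COR47 ranged from 3775 to 4934 CPM with a median of 4249, ERD14 from 1623 to 3082 with a median of 2561, and ERD10 from 1310 to 2716 with a median of 2334. RD29A ranged from 726 to 1915 CPM with a median of 1290. RD29B ranged from 0 to 252 CPM with a median of 171, and was above 0 in 38 of the 39 portions. The lowest values of COR47, ERD10, RD29A and RD29B fell in 2 small portions, of 12981 counts for COR47 and ERD10 and of 13781 counts for RD29A and RD29B.

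The order of the genes held in most portions. KIN2 was higher than KIN1, KIN1 than COR47, COR47 than ERD14, and RD29A than RD29B in 39 of 39 portions. ERD10 was higher than RD29A in 38. ERD14 was higher than ERD10 in 31, so these neighbours were the closest of the family, with a ratio of 1.09 in the deepest profile (1.07 to 1.11). The portions come from 1 sample and are not replicates. The counts of KIN2 and KIN1 did not vary independently, as described below.

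**Figure D4:**
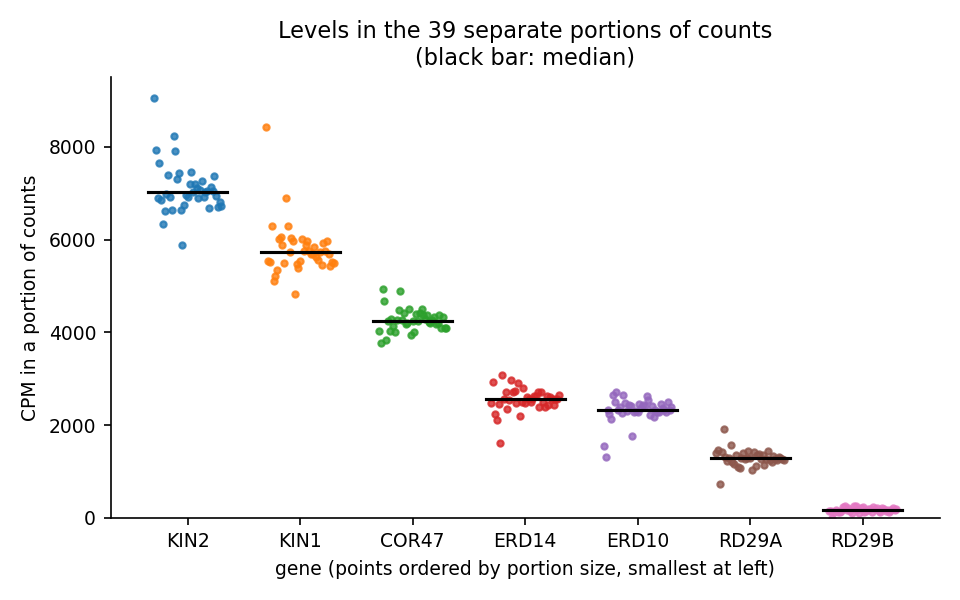
CPM of 7 genes (y axis) in 39 portions of counts that do not overlap, with points of each gene ordered by portion size from left to right and a black bar at the median. KIN2 lies between 5889 and 9056 CPM, its highest point is the smallest portion at the far left, and ERD14 and ERD10 overlap.

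Whether the share of a gene moved beyond counting error was described by a chi-square per degree of freedom over portions, which is close to 1 for independent counts at a constant share. With the total taken over loci above 0 in every profile, it was 1.63 for KIN2 and 1.60 for KIN1. This total was chosen after seeing the data. RD29A had 1.28, ERD14 1.15, COR47 1.08, ERD10 1.07 and RD29B 1.06. The median of 1609 genes of at least 100 CPM was 1.04, and 95% of them lay below 1.59. On this total KIN1 and KIN2 were at the upper edge of these 1609 genes, and the other members were in the range of most of them. With the total over all loci, the setting planned beforehand, KIN2 had 2.53 and KIN1 2.48. Both lay below the 95th percentile of 4.89 of the 1768 genes of at least 100 CPM, whose median was 1.10.

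KIN1 and KIN2 moved together. Over the portions their CPM had a Pearson correlation of 0.87 and a Spearman correlation of 0.77, and Pearson's value was 0.73 without the portions of QC cells 25 and 4, which lay farthest from the medians of both genes. The other 20 pairs of members ranged from -0.49 to 0.39. The proportion of KIN2 in the count of the pair varied less than independent counts would: its chi-square per degree of freedom was 0.255, whereas the other 20 pairs had 0.919 to 1.56. The summed count of KIN1 and KIN2 had a chi-square per degree of freedom of 2.96. The count ratio of KIN2 to KIN1 was 1.23 (1.21 to 1.24) in the deepest profile, 1.20 (1.04 to 1.37) in the shallowest, and 1.07 to 1.43 over portions. The Poisson and binomial intervals of both genes assume independent counts and are only nominal here. Whether the same reads were counted at both loci was not tested.

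**Figure D5:**
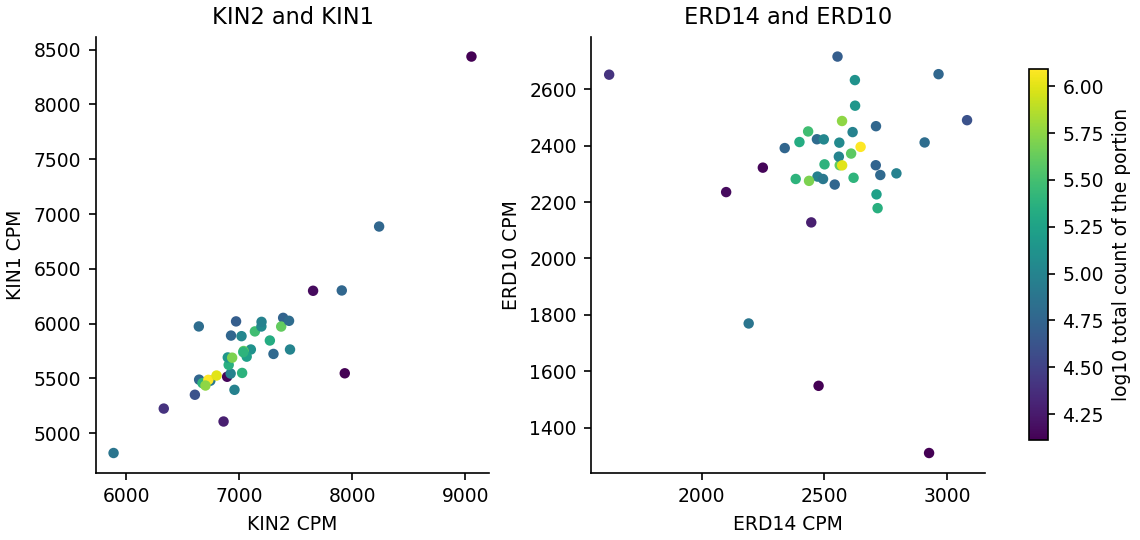
CPM in 39 portions for KIN2 (x axis) and KIN1 (y axis) at left, and for ERD14 and ERD10 at right, coloured by the log10 total count of the portion. The points of KIN2 and KIN1 follow a line, with a correlation of 0.87, while those of ERD14 and ERD10 form no line, with a correlation of -0.05.

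No gene was more like KIN2 over the portions than KIN1, among the 1772 genes whose mean over portions reached 100 CPM. The next were AT3G52360, with a correlation of 0.69 and 309 CPM, and AT5G45510, with 0.66 and 119 CPM. Without the 2 portions farthest from the median these fell to 0.52 and 0.46. The middle 90% of all genes lay between -0.34 and 0.46 around a median of 0.04. Of the other members, ERD14 had 0.25, RD29A 0.12, COR47 0.10, RD29B 0.01 and ERD10 -0.29. All correlations share the same portions, with small portions being the most variable.

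Dehydrin genes numbered 10 in the lists used, COR47, ERD10 and ERD14 included. Of these, 9 were above 0 in the deepest profile and 6 reached 100 CPM, against 51.3% and 5.41% of all loci. LTI30 (AT3G50970), also named XERO2, was the highest dehydrin outside the 8 genes, with 3355 CPM (3314 to 3397) at rank 15, between COR47 and ERD14. AT4G38410 had 293 CPM, HIRD11 173 CPM and the abscisic acid-responsive RAB18 97.0 CPM (90.1 to 104). XERO1, the tandem neighbour of LTI30, had 65.0 CPM (59.3 to 71.1). AT2G21490 had 3.36 CPM, and AT4G39130 was listed at 0.

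The wider list of 38 other cold-regulated and LEA genes, which includes the remaining dehydrins, had 28 genes above 0 (73.7%), 22 above 0 in every profile (57.9%) and 18 of at least 100 CPM (47.4%), against the same shares of all loci as for the dehydrins and, in every profile, 15.3%. Its median was 86.3 CPM, beside 0.673 CPM over all loci. After LTI30 the highest were AT3G02480, a LEA-type gene, with 892 CPM (870 to 913), COR413PM1, a plasma membrane protein, with 567 CPM (550 to 585), LEA7 with 525 CPM (508 to 541), and RCI2A, a small membrane protein, with 440 CPM (425 to 455). The genes for the chloroplast inner envelope proteins COR413IM1 and COR413IM2 had 4.84 CPM (3.39 to 6.71) and 10.9 CPM (8.66 to 13.5). COR15B, GOLS3, a galactinol synthase gene, and RD20, RD22, LTP3, LTP4, LEA4-1, AT5G38760 and AT5G53820 were also listed at 0.

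The regulators lay below KIN1, KIN2, the 3 dehydrins and RD29A, both in CPM and per length, but not all of them lay below RD29B. The list of 26 cold regulators also held factors of drought and abscisic acid response, such as DREB2A and ABF4. Of the 26, 22 (84.6%) were above 0 in the deepest profile, against 51.3% of all loci. In every profile 12 (46.2%) were above 0, against 15.3%, and 6 (23.1%) reached 100 CPM, against 5.41%. Their median was 18.8 CPM, beside 0.673 CPM over all loci. DREB2A, which acts in drought and heat, led with 507 CPM (491 to 523). The zinc finger repressors ZAT12 and ZAT10 followed with 322 CPM (309 to 335) and 146 CPM (137 to 155). ABF4, a factor that binds the ABRE, had 113 CPM (106 to 121), and RAV1 had 105 CPM (98.1 to 113). Per kilobase of transcript DREB2A had 307 CPM, ZAT12 328 and ZAT10 112, each above the 80.2 of RD29B and below the 479 of RD29A.

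The CBF genes, whose products bind the CRT/DRE, had few counts or were listed at 0. CBF1 and CBF3 were listed at 0 in every profile. As for COR15A, a listed 0 sets no upper limit on their level. CBF2 had 23 counts and 3.09 CPM (1.96 to 4.64), and was above 0 in 25 profiles, and CBF4 had 6 counts. ICE1, an activator of CBF genes, had 112 counts and 15.1 CPM (12.4 to 18.1) and was above 0 in every profile, while ICE2 was listed at 0.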

How the data were processed

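CEL-Seq profiles of 39 of 40 sorted QC cells were used, and the remaining sample was not analysed here. The authors deposited log2 values of read counts normalized to depth plus 1. The submitters' processing notes name Bowtie2 and TAIR10, and the study's methods describe exon counting with ngsutils, partial counts for reads with several matches and removal of genes with little coverage for its other single-cell RNA-seq. Whether these steps were applied to the CEL-Seq cells is not stated. Counts were recovered as whole multiples of 1 step per profile, within 0.000844 of a step. The smallest count above 0 was 2. CPM was computed over 32678 loci, leaving out 91 spike-in and 2 reporter rows. Reads without molecular identifiers are not independent molecules, so the intervals describe counting error alone.

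The members and lists were chosen with earlier results of these data known. The genes named were the 8 members, the 3 genes most correlated with KIN2, the 5 highest genes of 2 lists, and CBF1, CBF2, CBF3, DREB2A, ICE1, COR15B, RAB18, XERO1 and LTI30. Others were named after their values were seen. Gene models and sequences came from RefSeq (TAIR10.1), in which 31912 loci had a record. Upstream windows were counted from the outermost annotated start codon. No tests were run, since there was 1 group and 1 sample. Count recovery, chi-squares and correlations were tested on simulated data. Alternatives covered the total, the profile, the detection limit, transcript length and the form of the correlation. Python 3.11.15, numpy 2.4.6, pandas 2.3.3, scipy 1.17.1, Biopython 1.88 and matplotlib 3.10.9 were used.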

Additional observations from a re-analysis of the deposited data

Results flagged for a closer look

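The ERCC spike-in RNAs, which do not enter the CPM of the cold-acclimation genes, took up 4.97% of all counts of QC cell 22, with 70 of the 91 rows above 0. This signal was singled out because it lies outside the main measurement, and the series had no control group to set it against.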

How the results depend on the processing

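A value was taken as moved when it left its counting interval, numbers and ranks beyond 1.5 times, and the chi-square and correlation beyond 1 SD. Of 21 other settings, 14 stayed within this tolerance and 7 moved. Of 4 chosen after seeing the data, 3 stayed and 1 moved. The summed level of 23199 CPM became 22045 CPM with spike-in and reporter rows in the total, 26940 CPM without ribosomal RNA loci, 26780 CPM in the shallowest profile, 23362 CPM as the median over portions and 27999 CPM over loci above 0 in every profile, which was chosen after seeing the data. The ratio of KIN2 to KIN1 was 1.20 in the shallowest profile, whose own interval includes the main value, and 1.36 per transcript length. KIN2 ranked 1 without ribosomal RNA loci, since these hold the ranks above it. Among these results no direction was reversed, but the order of COR47 and ERD14 turned with transcript length, from a ratio of 1.64 in counts to 0.833 per length. Counts of reads from the 3' end need not follow that scale. No paired analysis was possible because there was 1 group. With 1 sample, no replicate error exists. Genes of few counts, such as CBF2 and CBF4, had wide counting intervals for their level, and whether depth accounts for their listed 0 values was not tested.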
